A study of Mus musculus with 12 samples.

Results

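Histones are the proteins around which DNA is wound, and a dividing cell makes most of its histone mRNA while it copies its DNA. The genes described here are the mouse genes whose current symbol starts with H1f, H2ac, H2bc, H3c, H4c, H2az, H3f or H2ax, or whose older symbol starts with Hist1h, Hist2h, Hist3h or Hist4h. The RefSeq table for GRCm38.p6 held 85 such genes, of which 56 had at least 1 probe that could be named. 51 of them were bright enough to test, among 24183 genes or transcripts tested in all. They comprised 7 H1, 17 H2A, 10 H2B, 8 H3 and 9 H4 genes, and 33 of the 51 lie on chromosome 13, 9 on chromosome 3 and 4 on chromosome 11. A further 5 genes (H1f3, H1f7, H1f10, H2bc22 and H3c8) had only dim probes, and 29 had no probe named here, 6 of them pseudogenes by their symbol.

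RNA came from the mouse line DKO172, grown out of the fallopian tumor of a female, and was measured on 12 single-colour Agilent arrays. The line is understood to lack Dicer1, which the labels do not state and which every group would share. Cells had been transfected with 2 µg of the plasmid pLD-hygro-EnVM coding for DICER1 G1809R, DICER1 D1709N, wild-type DICER1 (WT) or, as the control, GFP, with 3 arrays in each of the 4 groups. They were re-plated at 24 h, kept in 300 µg/ml hygromycin for 84 h and harvested at 108 h. DICER1 is the RNase III enzyme of microRNA maturation, and D1709N and G1809R are tumor hotspot substitutions in its RNase IIIb domain. The labels do not name the promoter that drives the plasmid's insert. Nothing in the labels says that replicates were separate cultures, so p-values reflect only the variation among these arrays, which may be technical.

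Most histone genes are replication-dependent: they sit in clusters without introns, are transcribed in S phase, and their mRNAs end in a stem-loop bound by SLBP in place of a poly(A) tail. Replacement variants such as H3f3a and H3f3b (both coding for histone H3.3), H2az1, H2az2 and H1f0 are transcribed outside S phase too, from genes whose mRNAs are polyadenylated. The labelling kit named in the labels is known to prime from poly(A) tails, so for the clustered genes the arrays may read mainly transcripts that carry a tail. Many clustered genes code for the same protein from near-identical sequence. The probe sequences were not used here, so a probe named for 1 of them may also bind its copies, and such genes are not independent measurements.

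Levels below are log2 intensities relative to the 75th percentile of the same array, so 0 is that percentile, and levels are compared only between groups for the same probe. The share of probes well above background was 49.5% to 71.4% on 11 arrays and 82.7% on WT replicate 1, which stood apart. Slide 1 held replicate 1 of each group, and slide 2 held replicates 2 and 3. The replicate numbers paired the arrays across groups, so the fit with the replicate number as a block is given beside the fit without it where it changes a call. Every tested histone gene was well above background on all 12 arrays except H2ac21, which was not on D1709N replicate 3 and WT replicate 3. Of 12 epithelial markers of the oviduct, 5 (Krt7, Krt8, Krt18, Krt19 and Ovgp1) were above background on all arrays, while Pax8 and Foxj1 were so on 4. Of 8 leukocyte markers, Cd3e, Csf1r and Itgam were above background on all arrays, Ptprc on 5 and Lyz2 on 1. Of 10 mesenchyme and stroma markers 7 were above background on all arrays, of 7 endothelial markers 2, and of 7 gonadal stroma markers 4. The mean level of the 9 tested mesenchyme and stroma markers ran between 0.462 and 0.758 with G1809R and 0.307 and 0.522 with D1709N. It ran between 0.498 and 0.774 with WT and 0.748 and 0.895 with GFP. The mean level of 6 smooth muscle markers ran between −2.95 and −0.98 with G1809R, −2.78 and −0.70 with D1709N, −1.32 and 0.24 with WT and −2.01 and −0.26 with GFP.

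With wild-type DICER1, histone genes lay lower than with GFP, and the genes of H4 and H3 were the ones that passed the test. limma called 6 of the 51 genes lower (11.8%, against 1.76% of all genes tested) and none higher (1.19% of all genes). Of the 51, 24 had an unadjusted limma p under 0.05, beside 3723 of all 24183 genes. The 6 were the H4 genes H4c4, H4c12 and H4c14, the clustered H3 genes H3c3 and H3c7, and H3f3a. 42 of the 51 genes had a change below 0, and their median log2 change was −0.39, against 0.04 over all genes tested. The 3 WT arrays all lay below the 3 GFP arrays for 18 of the genes (10.2% of all genes did so), and all above them for 1, H2aw (9.64%). With the replicate number as a block, limma called 20 of the 51 genes lower (39.2%, beside 8.61% of all genes). In bulk RNA a lower level per cell and fewer cells in S phase cannot be told apart. The 6 smooth muscle markers had a median change of 0.88 in the same comparison, with 3 called higher with the block (2219 of all 24183 genes). Of 9 tested mesenchyme and stroma markers 1 was called lower (1.76% of all genes). With the block 3 of these 9 were lower (8.61%) and 2 higher (2219 of all 24183 genes). The part of these markers in the result was not tested.

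The class median of the log2 change was −0.71 for H4, −0.70 for H3, −0.66 for H1, −0.36 for H2A and −0.18 for H2B. Of 9 H4 genes 3 were called lower, and 6 with the block. Of 8 H3 genes 3 were called, and 5 with the block. No H1, H2A or H2B gene was called without the block, whereas with it 3 of 7 H1, 2 of 17 H2A and 4 of 10 H2B genes were lower. The differences between classes were not tested, since genes of a class may share signal. Among the 44 genes with an older cluster name the median was −0.39, and among the 7 without one (H1f0, H1f8, H2ax, H2az1, H2az2, H3f3a and H3f3b) it was −0.15.

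**Figure D1:**
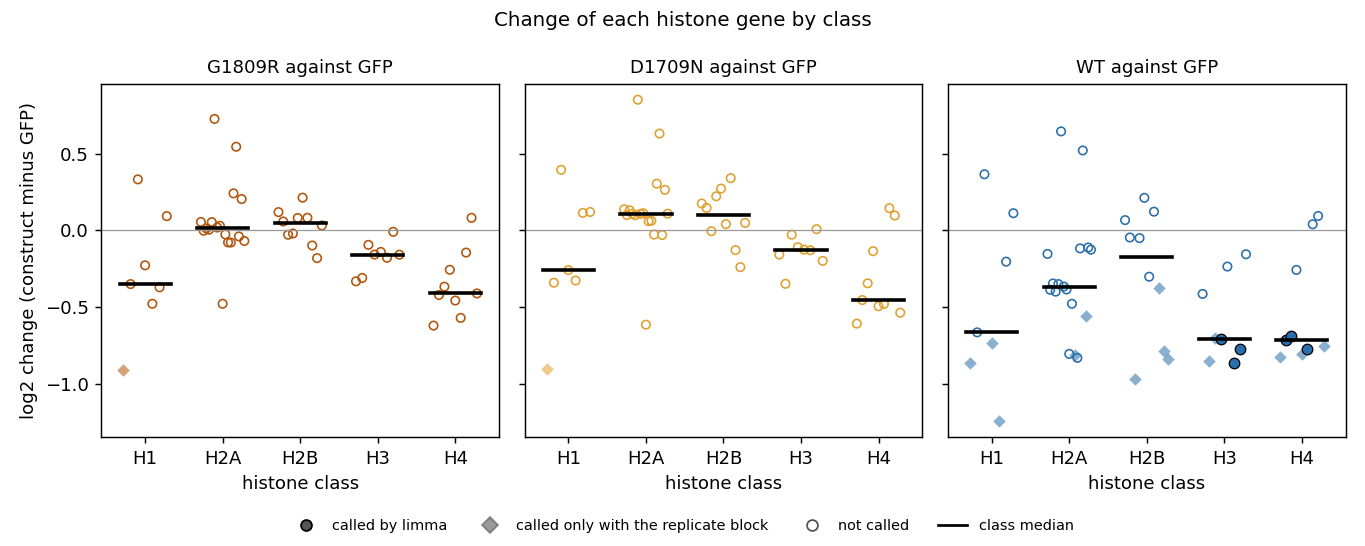
Log2 change of each of the 51 tested histone genes, by class, for G1809R, D1709N and WT against GFP (limma, 3 arrays a group). Filled circles are genes called without the replicate block (6, all with WT), diamonds those called only with it, open circles the rest, and bars are class medians. The H4 median lies below 0 in all 3 panels (−0.41, −0.45 and −0.71), and the H3 median is lowest with WT (−0.70).

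Histone H4 pairs with H3 at the core of the nucleosome, and its many gene copies code for the same protein. H4c12 (Hist1h4k, chr13:21750145-21750553 in GRCm38.p6) had log2 levels of 6.46, 6.06 and 6.10 on the WT arrays, against 6.94, 6.88 and 6.94 on the GFP arrays. The groups did not overlap, and WT replicate 1 was the nearest to GFP. H4c12 fell 1.64-fold (−0.71 ± 0.13 SE on the log2 scale, adjusted p = 0.024 in limma) and was below GFP in 3 of 3 same-number pairs.

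H4c14 (Hist2h4, chr3:96262934-96263317) had levels of 6.00, 6.03 and 6.12 with WT, against 6.59, 6.79 and 6.84 with GFP, and fell by 0.69 ± 0.13 on the log2 scale (limma adjusted p = 0.0274). H4c4 (Hist1h4d, chr13:23581568-23581969) had levels of 5.32, 5.0 and 5.11 with WT, against 5.66, 5.98 and 6.12 with GFP, and fell by 0.77 ± 0.16 (limma adjusted p = 0.0382). For both genes the WT arrays all lay below the GFP arrays. H4c11 and H4c3 showed the same order without being called. H4c11 stood at 1.86, 1.101 and 1.05 with WT, against 2.37, 1.93 and 2.18 with GFP (change −0.83, limma adjusted p = 0.101, 0.00653 with the block). H4c3 stood at 1.60, 0.90 and 0.62 with WT, against 1.99, 1.69 and 1.85 with GFP (change −0.80, limma adjusted p = 0.117, 0.018 with the block). H4f16, the H4 gene of the cluster formerly named Hist4h on chromosome 6, was at 4.06, 3.04 and 3.08 with WT, against 4.53, 3.86 and 4.05 with GFP, so the groups overlapped (change −0.75, limma adjusted p = 0.323, 0.0138 with the block). The other 3 H4 genes were not called in either fit: H4c8 was at 0.04, H4c9 at 0.09 and H4c17 at −0.26.

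The 2 probes of a gene did not always move alike. The second probe of H4c12 gave a WT minus GFP difference of −0.83, close to the −0.71 of the brighter probe. The second probe of H4c14, far dimmer, gave −0.01, against −0.69 for the brighter, and that of H4c9 gave −0.41, against 0.09. When a gene's probes were averaged, the call of H4c14 was lost (limma adjusted p = 0.691).

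Promoters of H4 genes are known for a subtype-specific box whose core, GGTCCG, is read by the zinc finger protein HINFP. Promoters of 72 of the 85 genes (73 promoters, 45 of the 51 tested genes) were found in the RefSeq table, each of 300 bases. Searched on both strands, GGTCCG stood in 11 of 12 H4 promoters and in 8.25% of all 32851 promoters. CCAAT, the motif of the factor NF-Y, stood in 20 of 20 H2A, 17 of 17 H2B and 13 of 14 H3 promoters, but in 3 of 12 H4 promoters (37.4% of all). TATAAA stood in 8 of 12 H4 promoters (13.6% of all), and the octamer ATTTGCAT, read by POU2F1, in 7 of 17 H2B and 7 of 20 H2A promoters (1.74% of all). None of these 4 motifs overlapped another in the sequences shown here. All 8 tested H4 genes with a promoter in the table held GGTCCG, including H4c8, H4c9 and H4c17, so the letters were shared by genes that were called and genes that were not.

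The 120 bases before the start of 5 H4 genes are shown because they carry the shared box: H4c12 (chr13:21750554-21750673, minus strand) and H4c4 (chr13:23581448-23581567, plus strand) were called, H4c11 (chr13:21734914-21735033, plus strand) and H4c3 (chr13:23698459-23698578, minus strand) only with the block, and H4c9 (chr13:22041363-22041482, minus strand) in neither fit. Capitals mark matches to the 4 motifs on either strand.
H4c12: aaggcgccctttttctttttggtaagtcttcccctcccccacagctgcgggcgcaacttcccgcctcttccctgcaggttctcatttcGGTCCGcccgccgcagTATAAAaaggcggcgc
H4c4: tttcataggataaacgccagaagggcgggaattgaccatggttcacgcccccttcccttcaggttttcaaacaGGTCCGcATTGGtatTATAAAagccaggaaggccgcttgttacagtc
H4c11: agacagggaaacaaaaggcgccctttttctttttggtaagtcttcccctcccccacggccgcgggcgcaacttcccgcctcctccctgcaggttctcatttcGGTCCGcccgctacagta
H4c3: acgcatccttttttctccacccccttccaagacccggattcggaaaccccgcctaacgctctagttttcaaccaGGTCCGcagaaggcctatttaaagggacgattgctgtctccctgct
H4c9: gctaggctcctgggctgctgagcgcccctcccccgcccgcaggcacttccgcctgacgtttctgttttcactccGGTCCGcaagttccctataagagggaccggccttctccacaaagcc

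The clustered H3 genes code for the replication-coupled H3.1 and H3.2. H3c3 (Hist1h3c, chr13:23745042-23745521) had levels of 1.25, 1.18 and 1.03 with WT, against 1.80, 1.97 and 1.81 with GFP, with the WT arrays all below. It fell by 0.71 ± 0.14 on the log2 scale (limma adjusted p = 0.0325). H3c7 (Hist1h3f, chr13:23544052-23544954) had levels of −0.69, −1.11 and −1.36 with WT, against −0.05, −0.22 and −0.29 with GFP, and fell by 0.86 ± 0.19 (limma adjusted p = 0.0469). H3c13, at 2.43, 1.52 and 1.40 with WT, against 2.85, 2.12 and 2.47 with GFP, overlapped between the groups (change −0.70, limma adjusted p = 0.267, 0.0471 with the block). H3c11 was at −1.80, −3.70 and −3.39 with WT, against −1.35, −2.81 and −2.19 with GFP, so its level followed the replicate number (change −0.85, limma adjusted p = 0.634, 0.00776 with the block). H3c4, the brightest clustered H3 probe, was at 5.82, 5.47 and 5.51 with WT, against 5.87, 5.79 and 5.84 with GFP (−0.24, limma adjusted p = 0.41), so the H3 genes did not move by 1 common amount.

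The promoter of H3c3 (chr13:23745522-23745641, minus strand) is shown for its 3 copies of CCAAT, in capitals, and that of H2bc18 (chr3:96269580-96269699, plus strand) for CCAAT followed by the octamer, neither holding the H4 box.
H3c3: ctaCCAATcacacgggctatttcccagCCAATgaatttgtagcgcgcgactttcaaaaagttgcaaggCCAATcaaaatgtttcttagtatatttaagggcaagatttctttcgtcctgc
H2bc18: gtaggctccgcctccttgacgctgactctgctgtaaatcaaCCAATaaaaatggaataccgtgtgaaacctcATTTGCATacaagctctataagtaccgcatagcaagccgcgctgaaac

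Histone H3.3, the H3 variant placed in chromatin outside S phase, is encoded by 2 genes that make the same protein. Of these 2 genes only H3f3a was called with WT against GFP. H3f3a (chr1:180802560-180813605) had levels of 4.51, 4.78 and 4.68 with WT, against 5.34, 5.59 and 5.36 with GFP. It fell 1.71-fold (log2 change −0.77 ± 0.17 SE, limma adjusted p = 0.0469), and its second probe gave a difference of −0.72, though with the probes averaged the call was lost (limma adjusted p = 0.0737). H3f3b (chr11:116021961-116026039) had levels of 6.21, 6.18 and 6.25 with WT, against 6.31, 6.37 and 6.42 with GFP. Its WT arrays also lay below the GFP arrays, but by little, and it was not called in either fit (−0.15 ± 0.12, limma adjusted p = 0.683, 0.317 with the block). Its other 2 probes gave −0.48 and −0.22.

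The log2 ratio of the H3f3a probe to the H3f3b probe within each array was −1.69, −1.40 and −1.58 with WT, against −0.97, −0.78 and −1.06 with GFP. The ratio was lower on every WT array, by 0.62 on average, which in an exact permutation test gave the smallest two-sided p that 3 against 3 arrays allow (p = 0.1), so this test could not pass. The size depended on the H3f3b probe: with its other 2 probes in place of the brightest, the WT difference was −0.56 and −0.30. With G1809R the ratio was −0.70, −0.69 and −0.98, and with D1709N −0.66, −0.61 and −0.92. The mutants differed from GFP in this ratio by 0.15 and 0.21 (exact two-sided permutation p = 0.3 for G1809R and 0.2 for D1709N), and by up to 0.48 and 0.43 with the other H3f3b probes. These permutations did not use the replicate numbers. With the brightest probe, the ratio on every mutant array was above that on the GFP array of the same number.

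The 120 bases before a start of each of the 2 H3.3 genes are shown because these genes code for 1 protein under different promoters: H3f3a (chr1:180813606-180813725, minus strand) held 1 CCAAT match and no TATAAA in this window, while H3f3b (chr11:116024505-116024624, minus strand) held CCAAT, the octamer and TATAAA. The H3f3a window adjoins the bounds given above for its gene. The H3f3b window lies inside the bounds of its gene, before a start within them, so the 2 windows are not placed alike.
H3f3a: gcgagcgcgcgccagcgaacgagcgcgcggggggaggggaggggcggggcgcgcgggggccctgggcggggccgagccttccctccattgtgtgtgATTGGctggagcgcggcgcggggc
H3f3b: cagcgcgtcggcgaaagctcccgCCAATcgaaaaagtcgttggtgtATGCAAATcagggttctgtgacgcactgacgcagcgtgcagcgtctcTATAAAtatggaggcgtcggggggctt

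**Figure D2:**
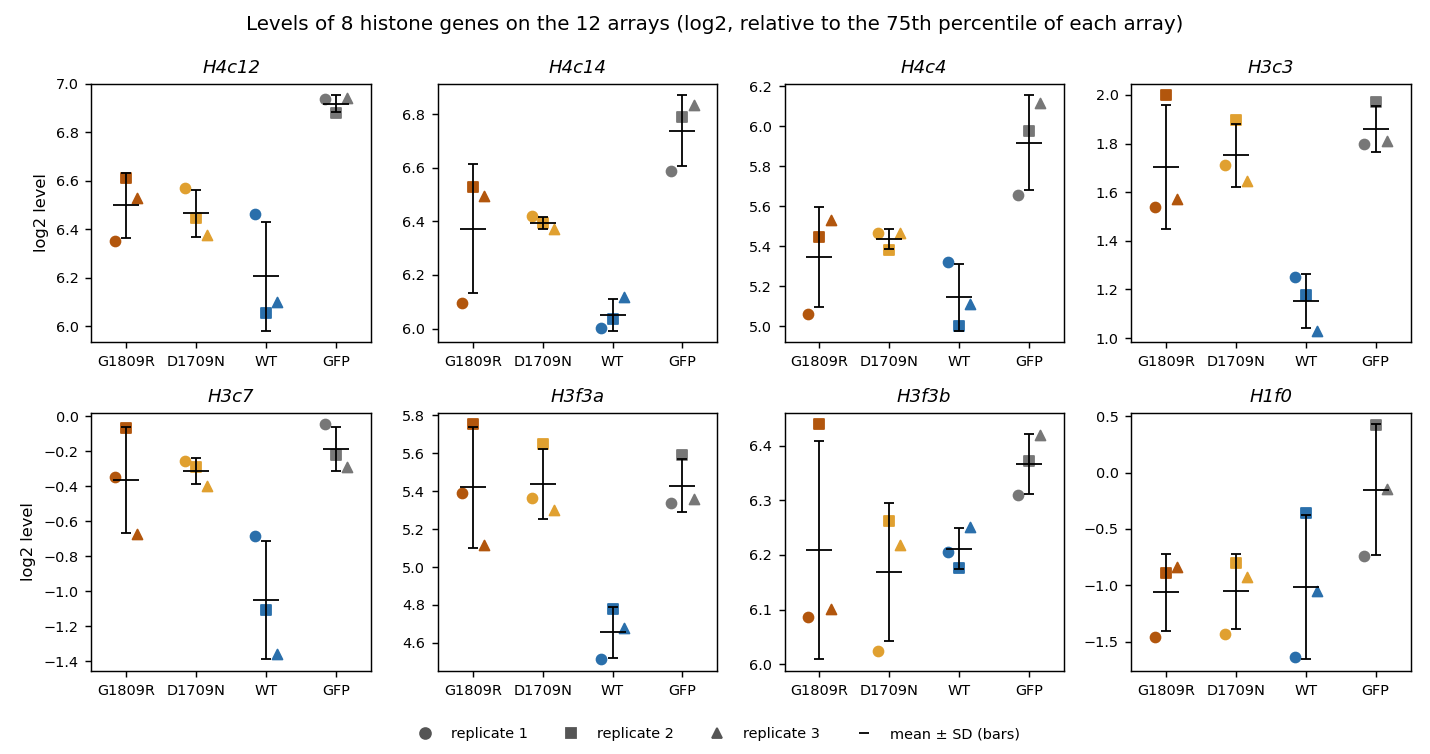
Log2 levels (0 is the array's 75th percentile) of the 6 histone genes called with WT against GFP, and of H3f3b and H1f0, on the 12 arrays. Symbols are replicate numbers and bars the mean ± SD of 3 arrays. H3c3, H3c7 and H3f3a are lowest on the 3 WT arrays, the 3 H4 genes are below GFP on every array of all 3 DICER1 groups, and H1f0 is lower on every array of the mutants.

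Linker histone H1 binds the DNA between nucleosomes. H1f5 had the most negative change of all 51 genes, at 0.13, −1.57 and −1.13 with WT, against 1.19, −0.35 and 0.32 with GFP. The groups overlapped because the level of H1f5 varied with the replicate number in every group, while the difference within each number was −1.06, −1.22 and −1.45. It was therefore called only with the block (log2 change −1.24, limma adjusted p = 0.292, 0.00194 with the block). H1f4 behaved in the same way, at 4.25, 3.44 and 3.36 with WT, against 4.70, 4.36 and 4.18 with GFP (−0.73, limma adjusted p = 0.177, 0.00622 with the block). H1f2 did not: it was at 1.57, 1.53 and 3.39 with WT, against 1.77, 1.33 and 2.29 with GFP (0.36, limma adjusted p = 0.894), with WT replicate 3 far above the other WT arrays.

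H1f0, the replacement linker histone known to accumulate in cells that stop dividing, was at −1.64, −0.36 and −1.05 with WT, against −0.74, 0.42 and −0.15 with GFP. It was lower in all 3 pairs and called with the block alone (−0.86, limma adjusted p = 0.302, 0.00703 with the block).

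H2A and H2B form dimers at the outside of the nucleosome. The 7 brightest H2A probes (H2ac10, H2ac11, H2ac12, H2ac15, H2ac19, H2ac20 and H2ac22) lay close together in change, from −0.48 to −0.35, with limma adjusted p between 0.147 and 0.399. H2ac12, the brightest, was at 7.91, 7.56 and 7.76 with WT, against 8.01, 8.15 and 8.26 with GFP. Each of these 7 had its WT arrays below its GFP arrays, and none was called with the block. H2ac4 moved further, at 6.21, 5.49 and 5.47 with WT, against 6.75, 6.38 and 6.46 with GFP (−0.81, limma adjusted p = 0.0956, 0.0173 with the block). A second, dimmer probe of H2ac15 gave −0.79, against −0.35 for the brighter.

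Among H2B genes, H2bc18 was at 1.93, 1.08 and 0.56 with WT, against 2.74, 1.90 and 1.85 with GFP (−0.97, limma adjusted p = 0.34, 0.0312 with the block). H2bu2 was at 0.11, −1.12 and −0.43 with WT, against 0.70, −0.04 and 0.40 with GFP (−0.83, limma adjusted p = 0.252, 0.0284 with the block). Both were lower in 3 of 3 pairs, with overlapping groups. H2bc6, at −2.07, −1.82 and −2.12 with WT, against −1.67, −1.58 and −1.65 with GFP, did not overlap (−0.37, limma adjusted p = 0.155, 0.0151 with the block). The dim H2bc8, at −4.44, −4.65 and −3.35 with WT, against −3.37, −3.45 and −3.26 with GFP, was also called with the block alone (−0.79, limma adjusted p = 0.265, 0.0287 with the block). The 2 brightest H2B probes did not share this. H2bc4 was at 4.38, 3.92 and 5.65 with WT, against 4.66, 4.05 and 4.88 with GFP, and H2bc14 at 3.20, 2.84 and 4.29 with WT, against 3.56, 3.09 and 3.81 with GFP. Both were lower on WT replicates 1 and 2 and higher on WT replicate 3 than on the GFP array of the same number, with changes of 0.12 and −0.05.

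H2ax, whose phosphorylated form marks DNA breaks, was at 2.51, 2.10 and 2.72 with WT, against 3.22, 2.60 and 3.17 with GFP (−0.55, limma adjusted p = 0.23, 0.0199 with the block). H2az1 and H2az2 code for H2A.Z, the variant found beside active promoters. H2az1 was at 6.59, 6.22 and 7.08 with WT, against 6.82, 6.53 and 6.88 with GFP, and H2az2 at 4.91, 4.91 and 4.60 with WT, against 4.96, 5.17 and 4.68 with GFP. Their changes of −0.11 and −0.13 were within the spread between arrays (limma adjusted p = 0.952 and 0.956). H2aw, an H2A gene of chromosome 11, went the other way, at 1.75, 1.98 and 2.50 with WT, against 1.59, 1.48 and 1.60 with GFP. It was not called (0.52, limma adjusted p = 0.317, 0.11 with the block), and it was named after its values were seen.

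The lower histone signal with WT was present in each same-number pair of arrays. The median difference of the 51 genes was −0.23 for replicate 1, on slide 1, and −0.52 and −0.47 for replicates 2 and 3, on slide 2. In these pairs 41, 45 and 43 of the 51 genes were lower with WT, against 43.5%, 47.7% and 47.8% of all genes. The smallest median was that of the pair holding WT replicate 1, the array that stood apart. Without that array limma called 5 of the 51 genes lower (186 of all 24183 genes), with a median change of −0.58. Among them were 2 of the 6 calls (H3c7 and H4c12), the others being H2ac4, H4c3 and H4c11. With the block and without that array limma called 28 lower (1558 of all 24183 genes), all 6 among them, and 1, H2ac18, higher (1620 of all genes).

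The 6 calls without the block rest on few arrays. Leaving out GFP replicate 1, 2 or 3 or WT replicate 2 or 3 left none of the 6 called, and leaving out WT replicate 1 left 2. Leaving out D1709N replicate 1 or 3 left 2, and D1709N replicate 2 left 3, since all groups share the estimate of the spread, and leaving out a G1809R array left 4 to 6. With slide 2 alone, without the filter on dim probes, or with the WT and GFP arrays alone, none of the 6 was called.

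**Figure D3:**
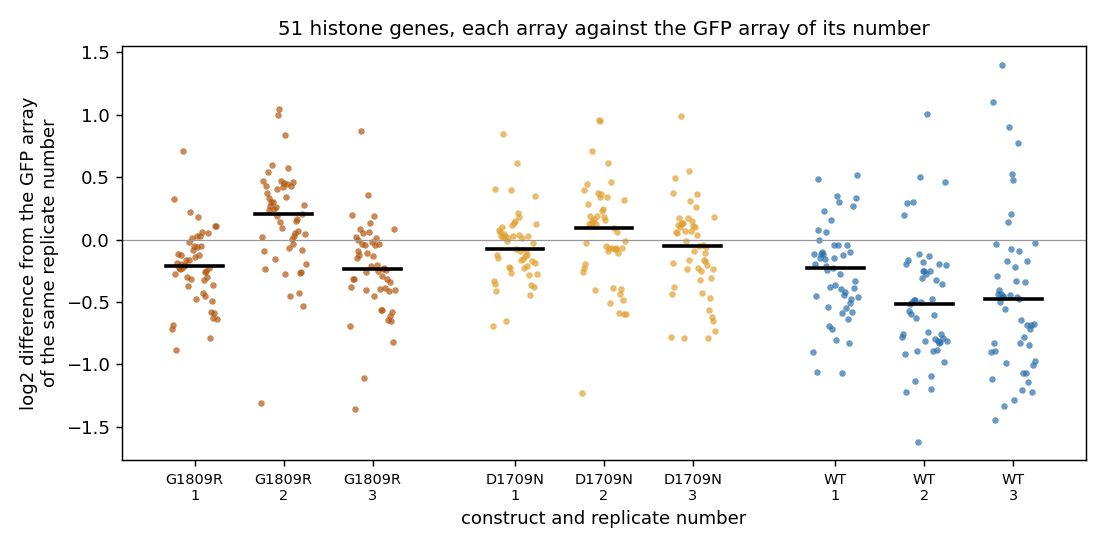
Log2 difference of each of the 51 histone genes between a DICER1 array and the GFP array of the same replicate number. Points are genes and bars medians, which are −0.21, 0.21 and −0.24 for G1809R, −0.08, 0.10 and −0.05 for D1709N and −0.23, −0.52 and −0.47 for WT, so WT alone has all 3 medians below −0.2 and replicate 2 of the mutants has medians above 0.

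With the hotspot mutants against GFP, H1f0 was the gene that passed the test, with the block alone, and no H4 gene passed in either fit. limma called none of the 51 genes with G1809R (0.0124% of all genes were called) and none with D1709N (0.0496%). Of the 51, 6 had an unadjusted limma p under 0.05 with G1809R, beside 1605 of all 24183 genes. With D1709N 6 had one, beside 1744 of all genes. The median change was −0.07 with G1809R, against 0.05 over all genes. With D1709N it was 0.04, against 0.03 over all genes, and it was −0.11 after quantile normalization and in the authors' deposited values. In the pairs of the same number the median of the 51 genes was −0.21, 0.21 and −0.24 with G1809R and −0.08, 0.10 and −0.05 with D1709N, so its sign depended on the pair. With the block 1 gene was called lower with each mutant, and it was H1f0 in both (1.98% of all genes with G1809R and 2.49% with D1709N), so its share of the 51 genes, 1.96%, was near that of all genes.

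H1f0 was at −1.46, −0.89 and −0.84 with G1809R and at −1.43, −0.80 and −0.93 with D1709N, against −0.74, 0.42 and −0.15 with GFP. All arrays of both mutants lay below all GFP arrays. The change was −0.91 with G1809R (limma adjusted p = 0.7, 0.0231 with the block) and −0.90 with D1709N (limma adjusted p = 0.638, 0.0221 with the block), beside −0.86 with WT. These 3 comparisons share the GFP arrays.

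The arrays did not overlap with GFP, and were lower, for 6 genes with G1809R (4.98% of all genes), namely H1f0, H4c3, H4c4, H4c11, H4c12 and H4c14. With D1709N they were lower for 8 (5.83% of all genes), which were the same 6 with H3c4 and H3f3b added. They were higher for H2aw with G1809R (6.14% of all genes), and for H2aw and H2az1 with D1709N (7.77%). H4c12 was at 6.35, 6.61 and 6.53 with G1809R and at 6.57, 6.45 and 6.38 with D1709N, against 6.94, 6.88 and 6.94 with GFP. H4c4 was at 5.06, 5.44 and 5.53 with G1809R and at 5.47, 5.38 and 5.46 with D1709N, against 5.66, 5.98 and 6.12 with GFP. The changes of H4c12 were −0.42 with G1809R and −0.45 with D1709N, beside −0.71 with WT, and neither mutant's passed (limma adjusted p = 0.526 and 0.411, or 0.0966 and 0.075 with the block). With the block and without WT replicate 1, H1f0, H4c11 and H4c4 were called lower with G1809R (limma adjusted p = 0.0221, 0.0309 and 0.0336). That fit called 529 of all 24183 genes lower with G1809R. With D1709N it called H1f0, H4c11 and H4c12 lower (limma adjusted p = 0.0211, 0.0306 and 0.0401) and H2ac18 higher (0.0407). Of all 24183 genes it called 686 lower and 576 higher with D1709N. The median of the 9 H4 genes was −0.41 with G1809R and −0.45 with D1709N.

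H3c3, H3c7 and H3f3a, which fell with WT, lay nearer to GFP with the mutants and were called in neither fit. H3f3a was at 5.39, 5.75 and 5.12 with G1809R and at 5.36, 5.65 and 5.30 with D1709N, against 5.34, 5.59 and 5.36 with GFP, with changes of −0.01 and 0.01. H3c3 was at 1.54, 2.00 and 1.57 with G1809R and at 1.71, 1.90 and 1.64 with D1709N, against 1.80, 1.97 and 1.81 with GFP. The mutant and GFP arrays overlapped for both genes and for H3c7. With D1709N, H3c3 and H3c7 were below GFP in 3 of 3 same-number pairs (changes of −0.11 and −0.13). With G1809R these 2 genes were below GFP in 2 of 3 pairs (−0.16 and −0.18).

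Set directly against WT, most histone genes lay higher with the mutants, and those that passed the test did so with the block alone. Without the block limma called none of the 51 genes with G1809R (1.04% of all genes were called higher) and none with D1709N (0.992%). Of the 51, 13 had an unadjusted limma p under 0.05 with G1809R, beside 2950 of all 24183 genes. With D1709N 15 had one, beside 3310 of all genes. With the block limma called 9 higher with G1809R (6.36% of all genes) and 12 with D1709N (7.12%). The median change was 0.32 with each mutant, beside 0.01 and −0.01 over all genes, and 42 genes with G1809R and 49 with D1709N were above 0. In the pairs of the same number the median was −0.02, 0.71 and 0.38 with G1809R and 0.21, 0.50 and 0.38 with D1709N, so the pair with WT replicate 1 showed the smallest difference with each mutant. All mutant arrays lay above all WT arrays for 5 genes with G1809R (8.27% of all genes) and for 15 with D1709N (10.0%).

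H3f3a was at 5.39, 5.75 and 5.12 with G1809R and 5.36, 5.65 and 5.30 with D1709N, against 4.51, 4.78 and 4.68 with WT. It was higher by 0.76 ± 0.17 SE with G1809R (limma adjusted p = 0.0664, 0.00333 with the block) and by 0.78 ± 0.17 with D1709N (0.0606, 0.0028 with the block). H3c3 was at 1.54, 2.00 and 1.57 with G1809R and 1.71, 1.90 and 1.64 with D1709N, against 1.25, 1.18 and 1.03 with WT. It differed by 0.55 with G1809R (limma adjusted p = 0.105, 0.00981 with the block) and by 0.60 with D1709N (0.0751, 0.00666 with the block).

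H3c7, at −0.35, −0.07 and −0.68 with G1809R and −0.26, −0.29 and −0.40 with D1709N, against −0.69, −1.11 and −1.36 with WT, was called with the block in both comparisons (0.0152 and 0.011, limma). H2ac4, H2ax, H2bc18, H2bu2, H1f4 and H1f5 were likewise called with the block with each mutant, with changes between 0.47 and 0.96. H2ac12, H2ac20 and H2ac22 were called with the block with D1709N alone, at 0.51, 0.50 and 0.54, whereas with G1809R the 7 brightest H2A probes were at 0.36 to 0.45. No H4 gene was called in either comparison and either fit, and the H4 median was 0.21 with G1809R and 0.22 with D1709N.

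WT replicate 1 weighed on these counts, and the smooth muscle markers moved in the same comparisons. Their median change was −1.35 with G1809R and −1.18 with D1709N against WT. With the block 5 of 6 were called lower with each mutant, beside 1527 of all 24183 genes with G1809R and 2037 with D1709N. The part of these markers in the result was not tested. With the block and without WT replicate 1, limma called 17 of the 51 genes higher with G1809R (1039 of all 24183 genes) and 19 with D1709N (1122 of all genes). The medians of the 51 genes were 0.42 and 0.45.

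Between the mutants no histone gene was called. limma gave 0 of 51 genes with G1809R against D1709N in either fit (0% of all genes in both). Without the block none of the 51 had an unadjusted limma p under 0.05, and 65 of all 24183 genes did. The changes lay between −0.48 and 0.17 with a median of −0.06, and 41 of the 51 were below 0. In the pairs of the same number the median was −0.18, 0.13 and −0.13, so its sign depended on the pair. This does not show that the mutants act alike.

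The genes that act on histones and on their mRNAs were read from lists, which share the gene Mcm2. Of 30 S phase genes, limma called 4 lower with WT against GFP (1.76% of all genes) and none higher, 17 lower with the block (8.61% of all genes), and 29 had a change below 0 (median −0.36). Called by limma were E2f2, a transcription factor of the G1/S step (−1.52), Cdc25a, the phosphatase that activates CDK2 (−1.20), Ccna2, the S phase cyclin (−1.15), and Gins1, a part of the replicative helicase (−0.64), with adjusted p between 0.00193 and 0.029. Against WT, 6 of the 30 were called higher with G1809R (1.04% of all genes) and 7 with D1709N (0.992%), and 18 with each under the block (6.36% and 7.12%). Against GFP, none was called with either mutant. With the block E2f2 was higher with each, beside 424 of all 24183 genes with G1809R and 427 with D1709N. The medians of the S phase list against GFP were 0.11 with G1809R, 0.04 with D1709N and −0.36 with WT, and the relation between them and the histone genes was not tested.

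Of 29 genes for the transcription and 3′ processing of histone mRNA, 1 was called lower with WT (1.76% of all genes), and 5 with the block (8.61%), with a median of −0.10. It was Zfp473, whose human counterpart belongs to the complex on the histone stem-loop that guides the cut of the 3′ end. Its level was −1.38 ± 0.34 (SD, n = 3 arrays) with WT and 0.18 ± 0.15 with GFP, a log2 change of −1.56 ± 0.17 SE (limma adjusted p = 0.00269). With G1809R it was at −0.29 ± 0.07 and with D1709N at −0.16 ± 0.10, both called higher than with WT (by 1.09 and 1.21, limma adjusted p = 0.0161 and 0.0133) and neither called against GFP (limma adjusted p = 0.6 and 0.731). Slbp, the stem-loop binding protein, was lower with WT by 0.38 with the block alone (limma adjusted p = 0.192, 0.0106 with the block). Hinfp, the H4 promoter factor, was at 0.02 with WT against GFP (limma adjusted p = 0.999).

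Of 36 histone chaperones and factors of variant exchange, 1 was called lower with WT against GFP (1.76% of all genes), with a median of −0.21. With the block 12 were lower (8.61%) and 1 higher (2219 of all 24183 genes). Against WT, 2 were called higher with G1809R (1.04% of all genes) and 0 with D1709N (0.992%), and 9 with each with the block (6.36% and 7.12%). With the block, Asf1b and Chaf1a, which deliver new H3 and H4 during replication, were lower by 0.69 and 0.49 (limma adjusted p = 0.126 and 0.194, or 0.00749 and 0.0112 with the block). Hira, the chaperone that places H3.3 outside S phase, was not called (−0.32, limma adjusted p = 0.336, 0.152 with the block), and Daxx, the H3.3 chaperone of heterochromatin, was higher with the block alone (0.62, limma adjusted p = 0.138, 0.0197 with the block). Of 5 variants outside the family's symbols, Cenpa, the centromeric H3, was lower with the block alone (−0.52, limma adjusted p = 0.16, 0.0211 with the block).

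**Figure D4:**
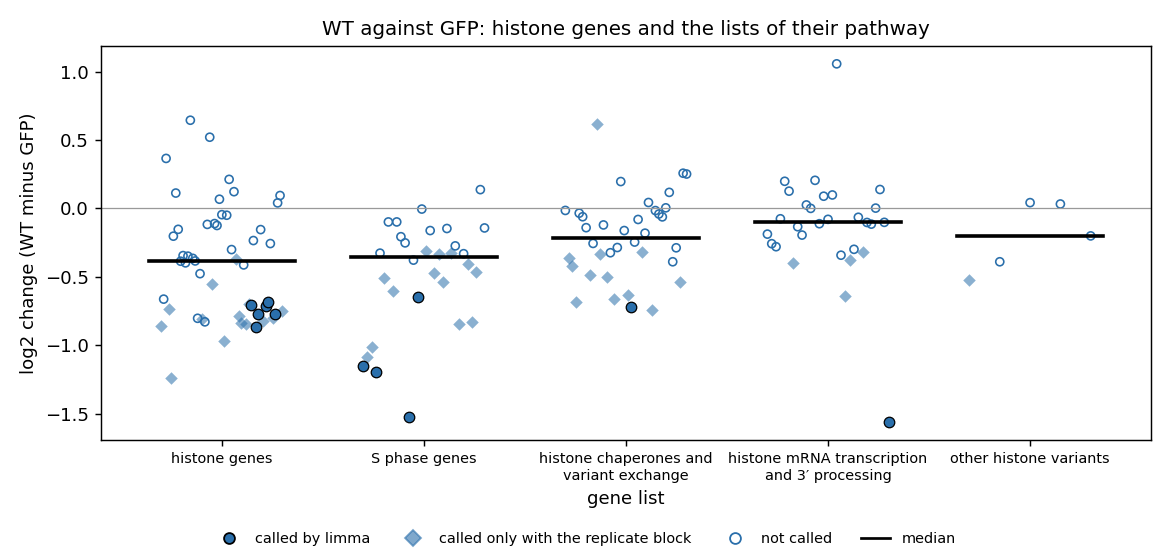
Log2 change with WT against GFP of the 51 histone genes and of the genes of 4 lists: S phase (30), histone chaperones and variant exchange (36), histone mRNA transcription and 3′ processing (29) and other histone variants (5). Filled circles are called by limma, diamonds only with the replicate block, open circles in neither fit, and bars are medians (−0.39, −0.36, −0.21, −0.10 and −0.20). The filled circle at −1.56 in the processing list is Zfp473.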

How the data were processed

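RNA of 12 samples was hybridised to single-colour Agilent arrays. Per the file headers, spots were read with Agilent Feature Extraction 11.0.1.1, and the deposited spot intensity is the background-subtracted processed signal. The authors' deposited value table holds log2 values for 31362 probes, of which 31334 matched a probe of the scanner files; their centring is not stated in these sources, and they served as an alternative. A level is the log2 intensity minus the log2 of the array's 75th percentile over spots that are not controls. Spots with outlier flags were left out and spots of a probe averaged. A probe was kept if well above background on all 3 arrays of at least 1 group, and the brightest kept probe stood for its gene. No probe was saturated.

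Groups were compared with limma 3.58.1 (R 4.3.3) in 1 fit of all 12 arrays, with Benjamini-Hochberg adjustment over 24183 genes or transcripts, and an adjusted p under 0.05 was called. SE is limma's standard error. Same-number arrays deviated together in 18 of 18 pairs (r from 0.601 to 0.853), and each of the 12 arrays correlated best with its own number, so the numbers pair the arrays. The pairing was found in the data, and the labels do not say what a number marks. Alternatives were the replicate or slide as a block, slide 2 alone, quantile normalization, normexp with an offset of 50, the deposited values, no filter on dim probes, only the groups compared, the mean over a gene's probes, and leaving out each array. The fit without the block was also run on simulated data. Their noise was independent between arrays, unlike that of the paired arrays here, so that run does not bear on the pairing. The text names the called genes, up to 10 called with the block in a comparison, the replacement variants and the 2 brightest genes of each class; others, such as H2bc6, H2bc8 and H3c11, were named after their values were seen. The genes and lists were chosen with earlier results of these data known. The number of arrays limits the precision. One result of the chaperone list is not reported here.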

Additional observations from a re-analysis of the deposited data

How the results depend on the processing

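With WT against GFP, 6 of the 51 genes were called lower, and the count moved more than the direction. It was 20 with the replicate block, 15 with the slide as a block, 8 after quantile normalization, 8 after normexp and quantile normalization, 9 from the deposited values and 4 with the mean over probes, and 0 with slide 2 alone, with no filter on dim probes or with only the groups compared. Without 1 array it was 0 to 6. Slide 2 alone has fewer arrays and the 2-group fit fewer residual degrees of freedom; otherwise the cause was not tested. The median change stayed between −0.58 and −0.33 over the fits without 1 array and between −0.56 and −0.39 over the others. No filter added dim genes (36945 tested) and moved the median of all genes to 0.17 from 0.04. With WT against GFP, 447 of all 24183 genes were lower after quantile normalization and 511 after normexp and quantile normalization. With the mean over probes 399 of all genes were lower, and from the deposited values 508 of 23101. Over all genes, WT against GFP gave 713 calls, 4300 with the replicate block, 2112 with the slide as a block, 206 with no filter, and 3 with slide 2 alone or with only the groups compared, and 146 to 601 without 1 array.

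Against GFP, 1 gene was called with the replicate block for each mutant, and 0 under the other alternatives run, apart from the replicate block without WT replicate 1. Against WT, the counts were 9 with G1809R and 12 with D1709N with the replicate block, 2 and 6 with the slide as a block, and 1 and 2 after normexp and quantile normalization. Over all genes 674 and 730 were higher with the slide as a block, and 250 and 254 after normexp and quantile normalization. Without 1 array they were 0 with G1809R and 0 to 2 with D1709N. G1809R against D1709N gave 0 in each. The replicate block without WT replicate 1, added after the data were seen, gave 29 for WT against GFP, 3 for G1809R and 4 for D1709N against GFP, and 17 and 19 against WT. Over all 24183 genes that fit gave 3178, 1082 and 1262 calls against GFP in the same order, and 2016 and 2375 against WT. For the named genes, none of 616 refitted changes with WT turned a called direction: 505 kept their side of the threshold, 68 lost the call and 43 gained it. The sign did not hold in 11 of the 616, all for genes not called there (H1f2, H2az1, H2bc4 and H2bc14). With the mutants against GFP the sign was less stable. It did not hold in 43 of 616 with G1809R and 41 of 616 with D1709N, in 13 genes each. Normexp used the median spot signal, also chosen after the files were seen. H2ac21 was not well above background on 2 arrays, which limits its values.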
